A study of Homo sapiens with 9 samples.

Results

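The genes described here are 9 members of the bone morphogenetic protein (BMP) and transforming growth factor beta (TGF-beta) pathway: ID1, ID2, ID3, SMAD2, SMAD3, SMAD4, SMAD6, TGFBR1 and BMP4. They were taken by gene symbol from a list of 10, among 11350 genes of a table of RNA-seq counts. SMAD7 was on the list as well and was not analysed here. The RNA came from HCT116 cells, a human colon carcinoma line, in 3 forms with 3 libraries each. HUWE1-P is the parental line. HUWE1-WT and HUWE1-CS carry a repair template in the endogenous HUWE1 gene, which encodes a HECT-type ubiquitin ligase. The template gives the catalytic residue as cysteine in HUWE1-WT and as serine in HUWE1-CS, and in both it adds a gene for blasticidin resistance behind a P2A site. Both edited lines therefore share the insertion, the antibiotic selection and the growth from single cells, and only HUWE1-CS lacks the catalytic cysteine. HUWE1-CS against HUWE1-WT asks what the serine changes, HUWE1-CS against HUWE1-P adds the effects of editing, and HUWE1-WT against HUWE1-P measures editing with the cysteine kept. The 3 comparisons share libraries, so they are not independent of each other. The sources used here do not say how many clones stand behind the 3 libraries of an edited line, so a property of a clone and an effect of the residue cannot be told apart.

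In this pathway, secreted ligands such as BMP4 or TGF-beta bring type I and type II receptor kinases together, and the type I receptor phosphorylates receptor-regulated SMAD proteins. SMAD2 and SMAD3 carry the TGF-beta and activin branch, SMAD1, SMAD5 and SMAD9 carry the BMP branch, and both join SMAD4 to bind DNA. SMAD6 and SMAD7 are inhibitory SMADs that are themselves induced by the pathway. ID1, ID2 and ID3 are classical BMP target genes, and their products bind E proteins such as TCF3 and TCF12 and keep them from DNA. HCT116 is known for a frameshift in the coding repeat of TGFBR2, which disables the TGF-beta type II receptor. SMAD activity is phosphorylation, which RNA counts do not measure.

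Promoter sequences of 4 genes are shown because SMAD3 and BMP4 carry the differences between the lines, SMAD6 had the widest differences, and ID1 is the most highly expressed member per length. Each is the 250 bases before the RefSeq transcription start on GRCh38.p14, written 5′ to 3′ on the strand of the gene, with the most upstream start where RefSeq gives several. Capitals mark GGCGCC, a GC-rich SMAD-binding sequence, and GTCT or its complement AGAC, the short SMAD box.
The ID1 window is chr20:31605039-31605288 on the plus strand.
ID1: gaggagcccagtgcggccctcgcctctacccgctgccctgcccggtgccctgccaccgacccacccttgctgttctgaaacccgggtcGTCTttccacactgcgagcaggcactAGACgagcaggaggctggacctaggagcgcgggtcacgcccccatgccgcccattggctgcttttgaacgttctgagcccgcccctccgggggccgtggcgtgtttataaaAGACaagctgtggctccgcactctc
The SMAD3 window is chr15:67065352-67065601 on the plus strand.
SMAD3: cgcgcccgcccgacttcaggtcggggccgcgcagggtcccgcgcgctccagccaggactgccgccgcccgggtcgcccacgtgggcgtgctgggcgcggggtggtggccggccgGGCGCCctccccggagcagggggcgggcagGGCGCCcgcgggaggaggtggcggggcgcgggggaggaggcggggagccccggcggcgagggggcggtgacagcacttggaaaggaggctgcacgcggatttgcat
The SMAD6 window is chr15:66701986-66702235 on the plus strand.
SMAD6: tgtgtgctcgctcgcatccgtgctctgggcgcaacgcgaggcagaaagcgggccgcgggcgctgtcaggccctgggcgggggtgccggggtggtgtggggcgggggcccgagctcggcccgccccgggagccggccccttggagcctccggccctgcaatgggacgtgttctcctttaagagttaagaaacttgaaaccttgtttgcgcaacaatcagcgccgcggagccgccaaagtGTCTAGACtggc
The BMP4 window is chr14:53955051-53955300 on the minus strand.
BMP4: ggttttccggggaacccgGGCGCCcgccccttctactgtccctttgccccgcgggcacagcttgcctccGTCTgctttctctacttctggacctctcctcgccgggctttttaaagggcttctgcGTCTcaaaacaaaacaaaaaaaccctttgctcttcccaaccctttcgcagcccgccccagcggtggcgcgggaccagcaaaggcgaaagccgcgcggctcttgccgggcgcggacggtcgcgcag

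All 9 genes matched the RefSeq table, with 23 windows between them, of 35116 windows in all. The motifs searched on both strands were GGCGCC, the palindrome GTCTAGAC, which is a pair of SMAD boxes and is counted under GTCT as well, GTCT, and the E-boxes CACGTG and CAGCTG. The ID1 window held 3 GTCT matches and none of the others. The SMAD3 window held 2 GGCGCC matches, 0 GTCT matches and 1 CACGTG match, which is not capitalised. The BMP4 window held 1 GGCGCC and 2 GTCT matches. The SMAD6 window held the palindrome GTCTAGAC next to the transcription start, and both of its GTCT matches lie inside it. Of all windows, 64 (0.182%) held GTCTAGAC. GGCGCC occurred in 16.4% of windows, GTCT in 77.5%, CACGTG in 6.34% and CAGCTG in 14.0%, so only GTCT was found in most windows. A match is a description of the letters and not evidence of binding.

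Library totals lay between 1610984 and 2060349 counts, and the biological coefficient of variation was 4.77%. Levels are given in CPM, counts scaled to the size of the library after TMM normalization, and 3 counts were worth between 1.45 and 1.86 CPM. HUWE1 itself had 904, 971 and 1083 counts in HUWE1-P, 860, 830 and 782 in HUWE1-WT and 582, 569 and 584 in HUWE1-CS. Its level was 543 ± 19.8 CPM (SD, n = 3), 469 ± 25.8 CPM and 336 ± 11.7 CPM, and counts over the gene do not read the edited codon. Of 9 epithelial markers 7 had a row (EPCAM, KRT8, KRT18, KRT19, CDH1, CLDN4 and CDX2), with a summed level of 4169 to 4290 CPM in HUWE1-P, 4183 to 4594 CPM in HUWE1-WT and 3721 to 4100 CPM in HUWE1-CS. Of 7 fibroblast markers only COL1A1 had a row, at 19.2 to 24.7 CPM in HUWE1-P, 18 to 25.6 CPM in HUWE1-WT and 8.71 to 14.8 CPM in HUWE1-CS, and of 6 blood and 4 endothelial markers 0 had one. Every HUWE1-CS library thus lay below every control library for COL1A1 and for the summed epithelial markers, and the part of this in the results was not tested. Epithelial markers were thus present in every library. The samples are bulk RNA, so fewer cells with a transcript and less transcript per cell cannot be told apart.

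Of the 9 genes, SMAD3 and BMP4 were lower in HUWE1-CS cells than in both controls, by about the same proportion in each comparison. The other 7 did not pass the test in any comparison. The test was edgeR's quasi-likelihood F-test over all 11350 genes, and a gene was called where its FDR (false discovery rate after Benjamini-Hochberg adjustment) was 0.01 or less. In HUWE1-CS against HUWE1-P, 0 members were called higher and 2 lower, where 17.0% of all genes were called, 8.58% as lower. In HUWE1-CS against HUWE1-WT the counts were again 0 and 2, where 15.5% of all genes were called, 8.08% as lower. The median log2 fold change of the 9 genes was -0.04 and -0.16, beside -0.01 and -0.00 over all genes. In HUWE1-WT against HUWE1-P edgeR called 0 of the 9, where 0.0617% of all genes were called, and DESeq2 called 0 of the 9 as well. An unadjusted edgeR p under 0.05 was found for 2 of the 9 and for 629 of all 11350 genes. SMAD3 and BMP4 were also the 2 members whose HUWE1-CS libraries all lay below all 6 control libraries, as was true of 13.4% of all genes.

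**Figure D1:**
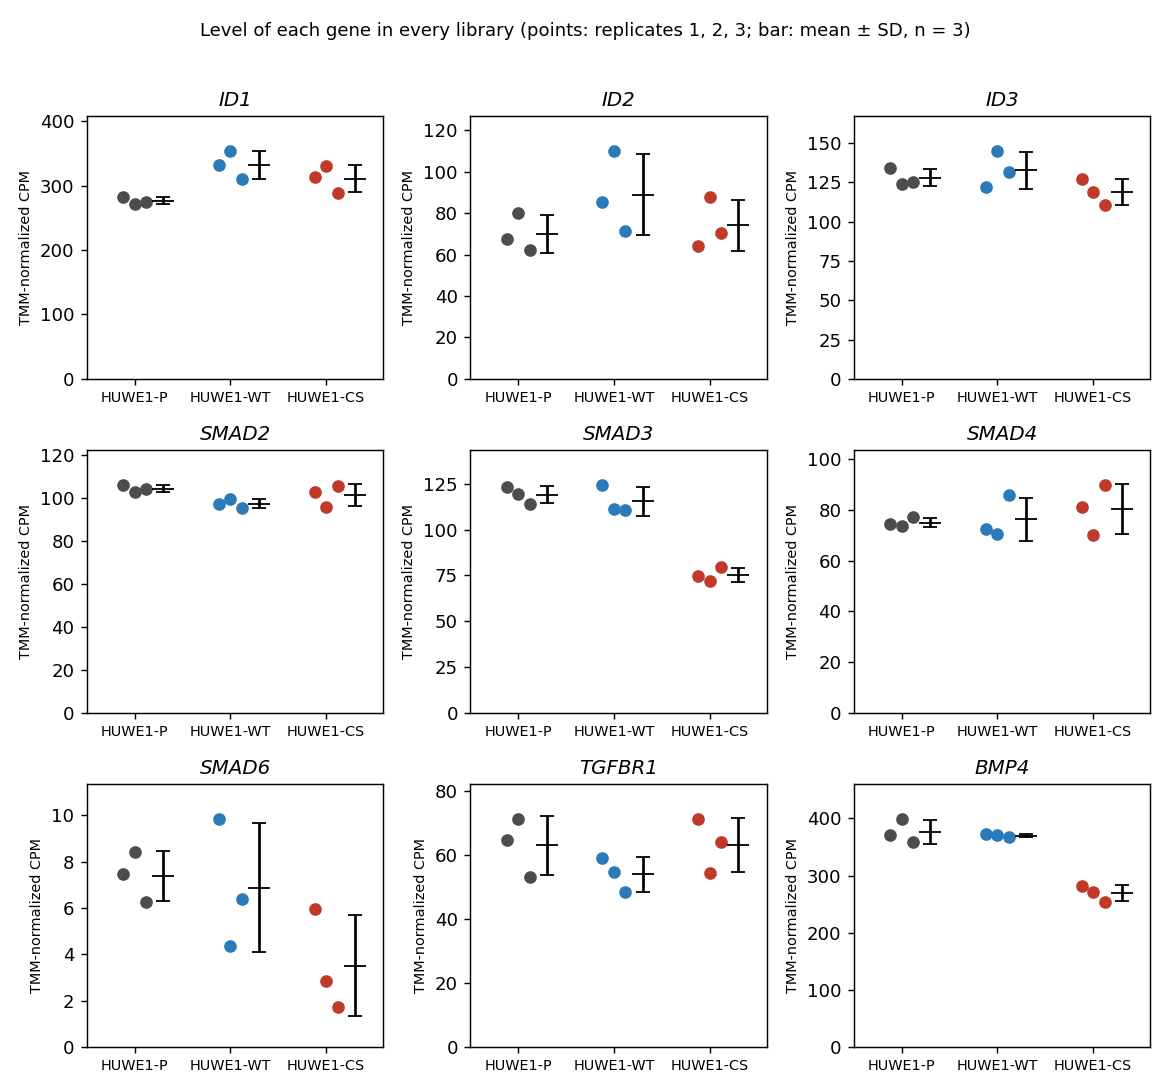
TMM-normalized CPM (vertical axis, from 0) of the 9 genes in each of the 9 libraries, 1 panel per gene. Points are replicates 1, 2 and 3 of HUWE1-P (grey), HUWE1-WT (blue) and HUWE1-CS (red), and the black bar is the mean ± SD of 3 libraries. For SMAD3 and BMP4 every HUWE1-CS point lies below all 6 control points, while in the other 7 panels the red points overlap the controls.

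BMP4, a secreted ligand of the BMP branch, lies on chromosome 14 at 54416454 to 54425479 (hg19, minus strand). It was measured at 371, 400 and 359 CPM in HUWE1-P, at 373, 370 and 367 CPM in HUWE1-WT and at 281, 271 and 254 CPM in HUWE1-CS. The 6 control libraries lay close together and the HUWE1-CS libraries were all lower, with a clear gap between them. BMP4 fell by 28.6% in HUWE1-CS against HUWE1-P, a log2 fold change of -0.49 with a standard error of 0.0682 (edgeR, FDR = 9.11e-09). Against HUWE1-WT it fell by 27.4%, a log2 fold change of -0.46 with a standard error of 0.0686 (edgeR, FDR = 5.11e-08). HUWE1-WT and HUWE1-P differed by -0.02, with a 95% interval of -0.15 to 0.11. The means were 377 ± 20.9 CPM in HUWE1-P, 370 ± 2.55 CPM in HUWE1-WT and 269 ± 13.9 CPM in HUWE1-CS (SD, n = 3).

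TGFBR1, the type I receptor for TGF-beta, was measured at 64.6, 71.3 and 53.0 CPM in HUWE1-P, at 59.1, 54.5 and 48.3 CPM in HUWE1-WT and at 71.2, 54.4 and 63.9 CPM in HUWE1-CS. The 3 lines overlapped, and the spread within a line was as wide as the distance between lines. The log2 fold change was 0.01 in HUWE1-CS against HUWE1-P (95% interval -0.24 to 0.26) and 0.22 against HUWE1-WT (-0.04 to 0.48), with edgeR FDRs of 0.954 and 0.216. A difference of up to about 0.48 on the log2 scale is therefore not excluded by these libraries.

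SMAD3, a receptor-regulated SMAD of the TGF-beta and activin branch, lies on chromosome 15 at 67356101 to 67487511 (hg19, plus strand). It had 199, 213 and 237 counts in HUWE1-P, 215, 204 and 190 in HUWE1-WT and 126, 127 and 137 in HUWE1-CS. After normalization this was 124, 120 and 114 CPM, 125, 111 and 110 CPM, and 74.8, 72.0 and 79.5 CPM. The lowest control library stood well above the highest HUWE1-CS library. SMAD3 fell by 36.5% against HUWE1-P, with a log2 fold change of -0.65 and a standard error of 0.102 (edgeR, FDR = 1.60e-07). It fell by 34.6% against HUWE1-WT, with a log2 fold change of -0.61 and a standard error of 0.103 (edgeR, FDR = 1.23e-06). HUWE1-WT against HUWE1-P gave -0.04, with a 95% interval of -0.23 to 0.14.

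SMAD2, which shares the receptors of SMAD3, was not called in any comparison. Its level was 106, 103 and 104 CPM in HUWE1-P, 97.3, 99.2 and 95.4 CPM in HUWE1-WT and 103, 95.8 and 106 CPM in HUWE1-CS, the narrowest range of the 9 genes at 1.11-fold from lowest to highest library. The log2 fold change was -0.04 against HUWE1-P (95% interval -0.23 to 0.15) and 0.06 against HUWE1-WT (-0.14 to 0.26), with edgeR FDRs of 0.808 and 0.727. SMAD4, the common partner of all receptor-regulated SMADs, was at 75.0 ± 1.84 CPM in HUWE1-P, 76.3 ± 8.53 CPM in HUWE1-WT and 80.5 ± 9.86 CPM in HUWE1-CS (SD, n = 3). Both its lowest and its highest library were HUWE1-CS, at 70.3 and 90.0 CPM. Its log2 fold changes of 0.10 and 0.08 had 95% intervals of -0.12 to 0.32 and -0.15 to 0.30. Whether the change of SMAD3 differed from that of SMAD2 was not tested, but their 95% intervals did not overlap in either comparison. SMAD1 and SMAD5, the BMP-branch SMADs with a row, were not called. SMAD1 was at 29.4 ± 8.03, 29.7 ± 1.35 and 41.5 ± 8.27 CPM in HUWE1-P, HUWE1-WT and HUWE1-CS, with log2 fold changes of 0.51 and 0.48 against the controls (edgeR, FDR = 0.0156 and 0.0260). SMAD5 was at 106 ± 5.19, 97 ± 15.8 and 87.6 ± 3.92 CPM, with -0.27 and -0.15 (edgeR, FDR = 0.0435 and 0.334).

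SMAD6, the inhibitory SMAD whose window carries the GTCTAGAC palindrome, had the fewest counts. There were 12, 15 and 13 counts in HUWE1-P, 17, 8 and 11 in HUWE1-WT and 10, 5 and 3 in HUWE1-CS. The HUWE1-CS counts reach the lowest values, but replicate 1 of HUWE1-CS lies within the range of the HUWE1-WT libraries. The log2 fold change was -1.06 against HUWE1-P, with a standard error of 0.428 and a 95% interval of -1.91 to -0.21, and edgeR's FDR of 0.0558 missed the threshold. Against HUWE1-WT it was -0.96, with a 95% interval of -1.82 to -0.09 and an FDR of 0.101 (edgeR). At this depth the data hold room for a small as well as for a large difference. Leaving out single libraries moved the first value between -1.64, without HUWE1-CS replicate 1, and -0.73, without HUWE1-CS replicate 3.

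The ID genes were measured with more counts. ID1 was at 282, 272 and 275 CPM in HUWE1-P, at 333, 354 and 310 CPM in HUWE1-WT and at 314, 331 and 289 CPM in HUWE1-CS. All 3 libraries of HUWE1-WT and all 3 of HUWE1-CS lay above the 3 of HUWE1-P, and the edited lines overlapped each other. In log2 fold change ID1 differed by 0.27 in HUWE1-WT against HUWE1-P (standard error 0.0691, 95% interval 0.13 to 0.41; edgeR FDR = 0.109) and by 0.17 in HUWE1-CS against HUWE1-P (95% interval 0.03 to 0.31; edgeR FDR = 0.0583). Between the edited lines it differed by -0.10, with a 95% interval of -0.23 to 0.04. None of these passed the threshold.

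ID2 was at 67.7, 80.3 and 62.2 CPM in HUWE1-P, at 85.2, 110 and 71.5 CPM in HUWE1-WT and at 64.1, 87.9 and 70.3 CPM in HUWE1-CS. In each line replicate 2 was the highest, and the 3 lines overlapped. The log2 fold change was 0.36 in HUWE1-WT against HUWE1-P (95% interval 0.12 to 0.59; edgeR FDR = 0.598), 0.09 in HUWE1-CS against HUWE1-P (-0.16 to 0.34; FDR = 0.653) and -0.27 in HUWE1-CS against HUWE1-WT (-0.50 to -0.03; FDR = 0.0952). ID3 was at 134, 124 and 125 CPM, at 122, 145 and 131 CPM and at 127, 119 and 110 CPM in the same order of lines. Its log2 fold changes were -0.11 against HUWE1-P (95% interval -0.29 to 0.08) and -0.16 against HUWE1-WT (-0.35 to 0.02), with edgeR FDRs of 0.438 and 0.195. HUWE1-WT replicate 2 was the highest of the 9 libraries for ID1, ID2 and ID3 alike. Without it, HUWE1-WT against HUWE1-P gave 0.22 for ID1, 0.17 for ID2 and -0.01 for ID3, and HUWE1-CS against HUWE1-WT gave -0.0409, -0.0713 and -0.0870 (edgeR, FDR = 0.764, 0.763 and 0.618). Of the partners of the ID proteins, TCF3 was at 256 ± 9.54, 236 ± 18 and 262 ± 8.34 CPM and TCF12 was at 71.3 ± 8.82, 79.9 ± 3.06 and 74.2 ± 17.0 CPM in HUWE1-P, HUWE1-WT and HUWE1-CS (SD, n = 3), and neither was called.

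**Figure D2:**
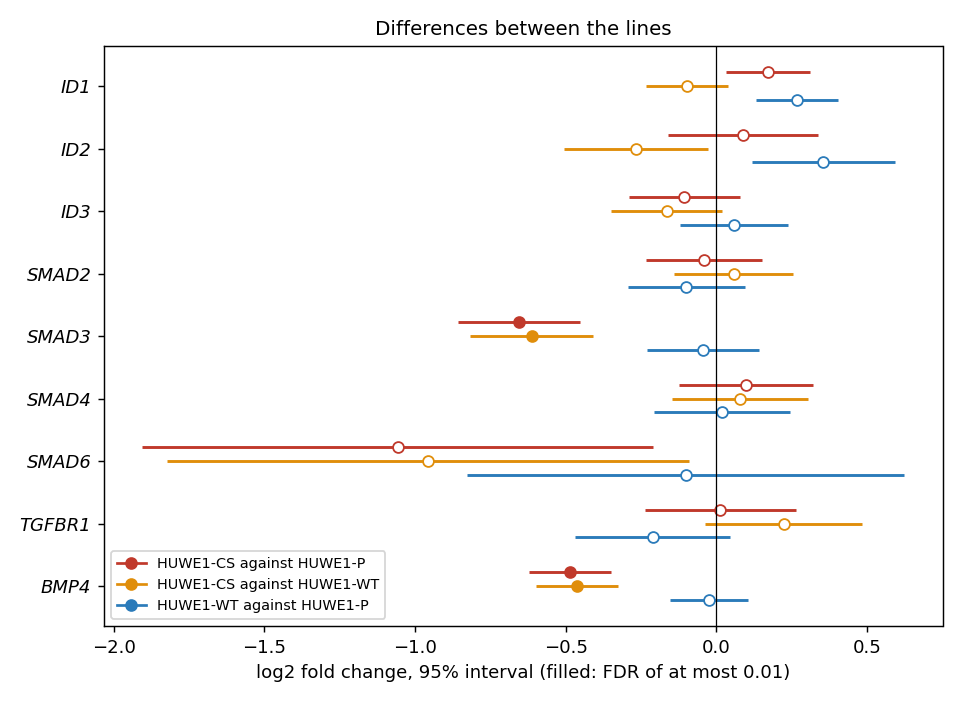
Log2 fold change (horizontal axis) of each of the 9 genes with its 95% interval in HUWE1-CS against HUWE1-P (red), HUWE1-CS against HUWE1-WT (orange) and HUWE1-WT against HUWE1-P (blue). Filled points have an edgeR FDR of at most 0.01 and are found for SMAD3 and BMP4 in both comparisons of HUWE1-CS. SMAD6 has the widest intervals, from -1.91 to -0.21 against HUWE1-P.

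The reading of the ID genes depended on transcript length. Across all genes with a length, the median log2 fold change of HUWE1-CS against HUWE1-P ran from 0.21 for the 697 genes with transcripts of up to 1000 bases to -0.15 for the 944 above 8000 bases. In HUWE1-CS against HUWE1-WT it ran from 0.19 to -0.08. The transcripts of ID1, ID2 and ID3 have 983, 1299 and 950 bases, at the short end of this range. When a trend with length was removed in each library, ID1 and ID3 became lower in HUWE1-CS than in HUWE1-WT, at log2 fold changes of -0.23 (edgeR FDR = 0.00309) and -0.30 (FDR = 0.00645), and ID2 was at -0.36 (FDR = 0.0147). These calls were lost without HUWE1-WT replicate 2, the 1 library left out in this fit: with the trend removed, ID1 was at -0.21 (FDR = 0.0215), ID3 at -0.26 (FDR = 0.0515) and ID2 at -0.19 (FDR = 0.315), a fit chosen after seeing the data. With all libraries 4 members were called and without that library 2, SMAD3 and BMP4, where 8.15% of all genes were called as lower with all libraries. Against HUWE1-P the values became 0.01 for ID1, -0.03 for ID2 and -0.27 for ID3 (FDR = 0.921, 0.902 and 0.0153). SMAD3 at -0.56 and -0.54 and BMP4 at -0.54 and -0.50 were called in both comparisons with the trend removed as well. SMAD2 moved to 0.24 and 0.18, but the transcript that the annotation names as canonical for SMAD2 has 34626 bases, so its values by length rest on that entry.

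**Figure D3:**
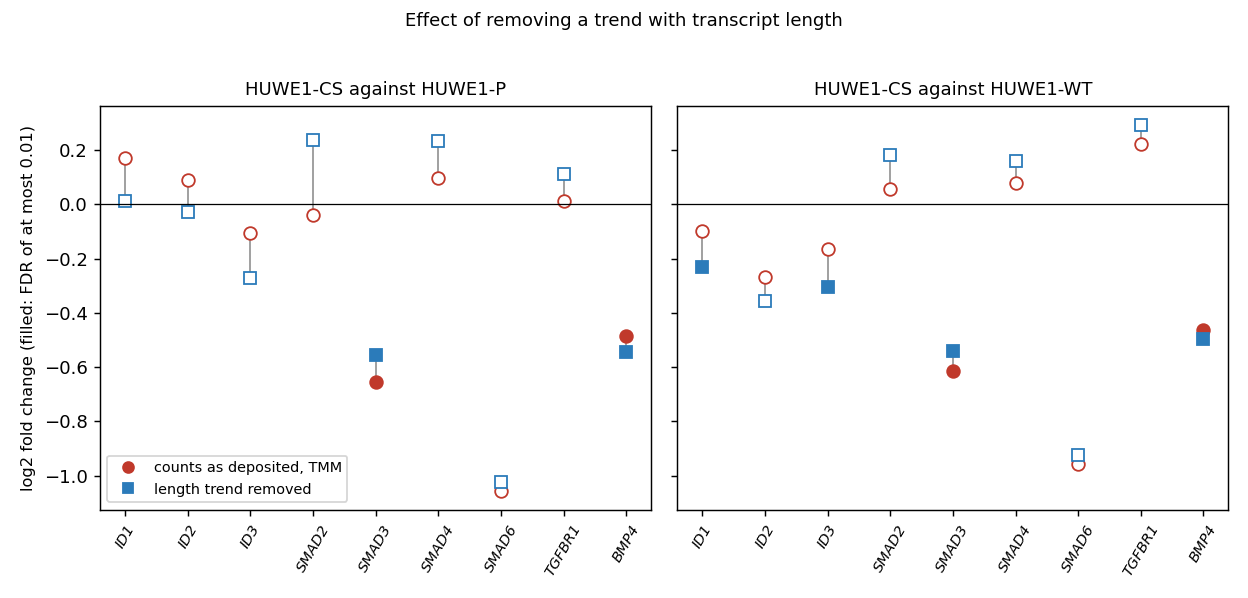
Log2 fold change (vertical axis) of the 9 genes in HUWE1-CS against each control, from the counts as deposited (red circles) and after a trend with transcript length was removed in each library (blue squares). Filled symbols have an edgeR FDR of at most 0.01. Against HUWE1-WT, ID1 and ID3 are filled only after the removal, at -0.23 and -0.30, with all 9 libraries in the fit, while SMAD3 and BMP4 are filled in all 4 places.

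Per kilobase of the canonical transcript, and over all 9 libraries, ID1 had the highest level at 312 CPM per kilobase. BMP4 followed at 175, ID3 at 133, ID2 at 59.8, SMAD3 at 16.0, TGFBR1 at 9.25, SMAD4 at 8.81, SMAD2 at 2.92 and SMAD6 at 1.55 CPM per kilobase. TGFBR1 and SMAD4 did not differ beyond their spread, at 9.73 ± 1.29 and 9.18 ± 1.12 CPM per kilobase in HUWE1-CS (SD, n = 3). In HUWE1-CS the level of BMP4, at 139 ± 7.22 CPM per kilobase, came close to that of ID3, at 125 ± 8.78, whereas in HUWE1-P they stood at 195 ± 10.8 and 135 ± 5.76 CPM per kilobase. The place of SMAD2 depends on its transcript length given above.

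A wider list of 120 pathway genes in 9 roles was typed from general knowledge, and 70 of them had a row. In HUWE1-CS against HUWE1-P, 8 of the 70 were higher, 7 were lower and 55 were not called, with a median log2 fold change of -0.00. In HUWE1-CS against HUWE1-WT, 5 were higher, 7 were lower and 58 were not called, with a median of -0.02. In HUWE1-WT against HUWE1-P 0 of the 70 were called by edgeR or by DESeq2. An unadjusted edgeR p under 0.05 was found for 4 of the 70, beside 629 of all 11350 genes. Without the 9 members, 61 genes gave 8 higher and 5 lower against HUWE1-P and 5 of each against HUWE1-WT. The genes that changed lay on both sides and in several roles, and their shares, 15 and 12 of 70, stand beside the 17.0% and 15.5% of all genes.

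Of 6 ligands with a row, 1 was called higher and 1 lower against HUWE1-P, where 17.0% of all genes were called. Against HUWE1-WT the counts were 0 and 1, where 15.5% were called. BMP4 was the ligand called lower in both comparisons. GDF11 fell further, to 5.22 ± 0.524 CPM from 11.3 ± 2.14 and 11.4 ± 4.24 CPM, with log2 fold changes of -1.09 and -1.11. It just missed the threshold (edgeR, FDR = 0.0115 and 0.0104). BMP7, another BMP ligand, rose against HUWE1-P, from 16.2 ± 5.49 to 27.7 ± 2.45 CPM, with a log2 fold change of 0.79 and a standard error of 0.209 (edgeR, FDR = 0.00211). Against HUWE1-WT, at 18.8 ± 3.21 CPM, its log2 fold change of 0.56 was not called (edgeR, FDR = 0.0333), and the call against HUWE1-P was lost without HUWE1-P replicate 2 (FDR = 0.0338), HUWE1-P replicate 3 (0.0212) or HUWE1-CS replicate 1 (0.0146). Of 10 receptors and co-receptors, 0 were called against HUWE1-WT, where 15.5% of all genes were called. Against HUWE1-P 1 was called, TGFBR3, the co-receptor betaglycan, where 17.0% of all genes were. TGFBR3 fell against HUWE1-P, from 21.0 ± 3.13 to 11.5 ± 4.53 CPM (log2 fold change -0.88, edgeR FDR = 0.00405). Against HUWE1-WT, at 18.1 ± 3.92 CPM, its log2 fold change of -0.65 was not called (edgeR, FDR = 0.0496). The call against HUWE1-P was lost without HUWE1-CS replicate 2, the lowest library at 6.24 CPM, where the log2 fold change was -0.57 (FDR = 0.103). It was also lost without HUWE1-P replicate 1 or replicate 3 (FDR = 0.0226 and 0.0287). With the length trend removed the log2 fold change against HUWE1-P was -0.78 and just missed the threshold (FDR = 0.0103). The signalling receptors were not called. ACVR2B came nearest, at 32.0 ± 2.57, 33.9 ± 4.29 and 45.3 ± 6.36 CPM in HUWE1-P, HUWE1-WT and HUWE1-CS. Its log2 fold changes were 0.49 and 0.42 against the controls (edgeR, FDR = 0.0109 and 0.0363). BMPR1A was at 45.3 ± 1.70, 46.7 ± 7.32 and 47.2 ± 5.47 CPM in HUWE1-P, HUWE1-WT and HUWE1-CS, BMPR2 at 34.6 ± 1.25, 29.7 ± 4.23 and 25.7 ± 4.77 CPM, ACVR2A at 19.1 ± 5.03, 14.4 ± 1.29 and 17.0 ± 4.04 CPM and TGFBR2 at 38.0 ± 1.26, 36.7 ± 4.35 and 30.2 ± 4.15 CPM.

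Of 9 extracellular inhibitors and latency proteins, LTBP4, which binds latent TGF-beta, rose in both comparisons. Its level was 150 ± 22.8, 138 ± 8.22 and 192 ± 1.54 CPM in HUWE1-P, HUWE1-WT and HUWE1-CS, with log2 fold changes of 0.35 and 0.47 (edgeR, FDR = 0.000753 and 6.07e-06). Without HUWE1-P replicate 1 the first was 0.25 and not called (FDR = 0.0358), and with a trend with GC content removed it was 0.26 and not called (FDR = 0.0109). LTBP2, a related matrix protein, was called against HUWE1-P from 3, 2 and 10 counts in HUWE1-P and 19, 12 and 10 in HUWE1-CS. The log2 fold change was 1.51 with a standard error of 0.448 (edgeR, FDR = 0.00681). This call was lost without HUWE1-P replicate 1 or 2 or HUWE1-CS replicate 1 or 2, with FDRs of up to 0.0949. Against HUWE1-WT, with 8, 6 and 5 counts, its log2 fold change of 1.12 was not called (edgeR, FDR = 0.0415). NBL1, a secreted BMP antagonist, fell against HUWE1-P, from 115 ± 4.84 to 90.7 ± 4.31 CPM (log2 fold change -0.34; edgeR FDR = 0.00578), with 102 ± 12.2 CPM in HUWE1-WT and no call against it. Its call was lost without any 1 of HUWE1-P replicates 1 and 2 and HUWE1-CS replicates 1 and 2, with FDRs between 0.0220 and 0.0340.

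Of 22 intracellular regulators of SMADs, USP11, a deubiquitinase reported to act on TGF-beta receptors, rose from 82.8 ± 8.93 CPM in HUWE1-P and 92.3 ± 4.0 CPM in HUWE1-WT to 142 ± 13.6 CPM in HUWE1-CS. The log2 fold changes were 0.77 and 0.62 (edgeR, FDR = 3.97e-10 and 2.07e-07). TOB1, an antiproliferative protein that binds SMADs, rose to 114 ± 5.81 CPM from 73.4 ± 3.63 and 82.5 ± 5.89 CPM, with log2 fold changes of 0.64 and 0.46 (edgeR, FDR = 5.16e-07 and 0.000233). NEDD4L, a HECT-type ubiquitin ligase that targets activated SMAD2 and SMAD3, fell to 35.0 ± 2.37 CPM from 55.7 ± 2.62 and 57.1 ± 8.95 CPM, with -0.67 and -0.70 (edgeR, FDR = 0.000133 and 6.97e-05). TGIF2, a SMAD corepressor, fell against HUWE1-WT from 23.2 ± 3.10 to 10.5 ± 2.42 CPM, with -1.14 (edgeR, FDR = 0.000198), and at -0.70 it was not called against HUWE1-P, where HUWE1-P replicate 1 stood apart at 26.1 CPM (edgeR, FDR = 0.0368). The better known SMAD ligases were not called, with SMURF1 at 64.6 ± 5.18, 66.1 ± 3.44 and 56.1 ± 2.22 CPM and SMURF2 at 171 ± 9.52, 168 ± 6.0 and 176 ± 12.1 CPM.

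Of 11 other SMAD target genes, 3 were higher and 2 lower against HUWE1-P, where 17.0% of all genes were called. Against HUWE1-WT 2 were higher and 3 lower, where 15.5% of all genes were called. CDKN1A, the cell cycle inhibitor p21, showed the widest difference, from 157 ± 1.94 and 172 ± 12.5 CPM in the controls to 412 ± 8.14 CPM in HUWE1-CS, with log2 fold changes of 1.40 and 1.26 (edgeR, FDR = 7.87e-32 and 5.97e-29). CDKN1A is also a p53 target, so that its level does not read SMAD activity alone. MSX1, a homeobox gene of the BMP branch, rose from 146 ± 11.7 and 167 ± 14.2 CPM to 259 ± 22.1 CPM, with 0.84 and 0.64 (edgeR, FDR = 2.77e-15 and 1.61e-10). GATA2, a zinc finger transcription factor, fell from 30.5 ± 6.23 and 29.6 ± 1.51 CPM to 13.1 ± 2.88 CPM, with -1.22 and -1.16 (edgeR, FDR = 1.91e-06 and 7.91e-06). MSX1 rose and GATA2 fell in the same fit in which ID1, ID2 and ID3 were not called.

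**Figure D4:**
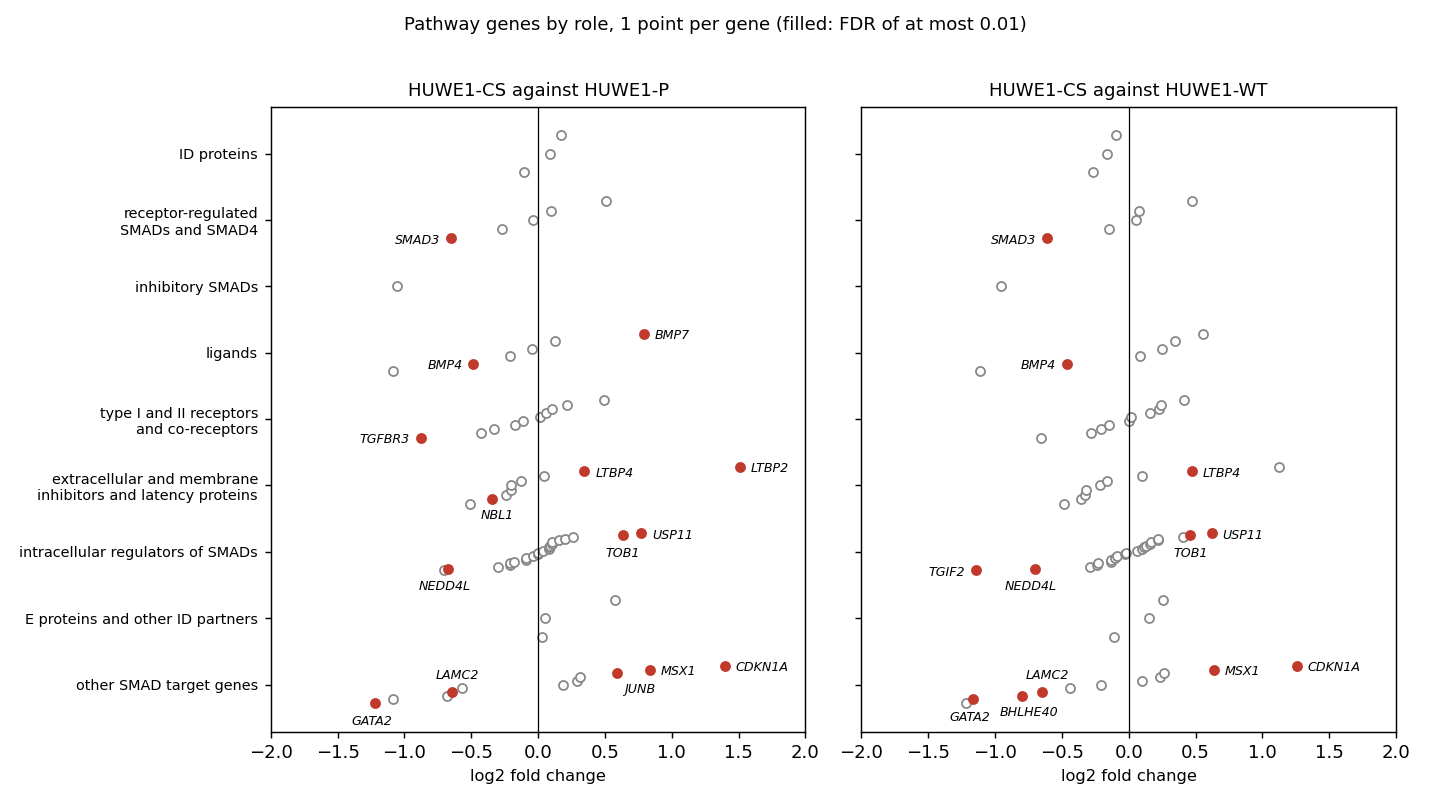
Log2 fold change (horizontal axis) of the 70 pathway genes in HUWE1-CS against HUWE1-P (left) and HUWE1-WT (right), 1 point per gene, in rows by role. Filled red points have an edgeR FDR of at most 0.01 and are named, 15 on the left and 12 on the right. They lie on both sides of 0, from GATA2 at -1.22 to LTBP2 at 1.51 on the left.

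Over the 9 libraries, the genes whose level followed that of SMAD3 closely, of 9984 with a mean of at least 10 CPM, included ZFP36L1 (Pearson's r = 0.992) and ITGA2 (0.990). For BMP4 the closest were MCM6 (0.993), VCAN (0.988) and PM20D2 (0.988), and for ID1 they were FBXL16 (0.940), SHKBP1 (0.932) and H1F0 (0.919). These are descriptions over 9 libraries that share lines and normalization. For SMAD3 and BMP4 they follow the step between HUWE1-CS and the controls. In log2 fold change against HUWE1-P and HUWE1-WT, ZFP36L1 was at -1.42 and -1.23, ITGA2 at -1.33 and -1.26 and VCAN at -2.67 and -2.78. These fell by more than SMAD3 or BMP4. MCM6, at -0.53 and -0.55, and PM20D2, at -0.46 and -0.47, fell by about as much as BMP4.

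Reads may be shared at a few places. Exons of SMAD3, BMP4 and ID2 overlap those of a long noncoding RNA on the opposite strand over 182, 506 and 145 bases, and SMAD4 shares 967 bases with another annotated gene on the same strand. None of these partners has a row, and the strand setting of the counting is not given in the sources used here, so reads from both strands cannot be told apart there.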

How the data were processed

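Polyadenylated RNA of 9 HCT116 libraries (HUWE1-P, HUWE1-WT and HUWE1-CS, 3 each) was sequenced as single-end reads. The authors demultiplexed with bcl2fastq 2.20, trimmed with Skewer and mapped to hg19 with STAR 2.5.4, and deposited whole-number counts per gene, not normalized. The counting tool, annotation, strand setting and low-count filter are not given in the sources used here. The authors also deposited edgeR 3.26.8 result tables with fold changes, p-values and FDRs, which were not used.

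Libraries were grouped by their labels. No sequencing batch or date is given. The study describes the replicates as biological and as distinct samples, and p-values measure the spread between these libraries. For each gene edgeR draws this spread towards that of all genes, with 89.5 of the 95.5 degrees of freedom. The p-values and intervals therefore do not rest on the libraries of that gene alone, unlike the SDs. Pairs of replicates differed by somewhat more than sampling noise, with a chi-square per degree of freedom between 1.16 and 1.65. None was treated as a duplicate.

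Counts were normalized by TMM and tested with edgeR 4.0.16 in R 4.3.3 (glmQLFit with legacy = TRUE, glmQLFTest) over all libraries with 1 coefficient per line and without a filter, and called at an FDR of at most 0.01 over 11350 genes. Of these, 147 carry an identifier without a symbol and were kept. Standard errors are the absolute log2 fold change over the root of F, and 95% intervals use the t quantile at 95.5 degrees of freedom. Lengths and hg19 positions are those of the GENCODE canonical transcript on GRCh37 (11059 genes). Promoter windows are from RefSeq on GRCh38.p14, a separate build. The edgeR fit was also run on counts simulated with the spread fitted here. They held no trend with length and no difference between clones, so neither was tested by them. Intervals cover the libraries at hand, and the depth limits genes of a few counts.

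Members, lists, motifs and tests were chosen with earlier results of these data known. The text names the members, 10 related SMADs, receptors and E proteins (SMAD9 and ID4 were not analysed here), the 3 called genes of lowest p per role in each comparison of HUWE1-CS, HUWE1, and the 3 genes most like ID1, SMAD3 and BMP4, of which 1 result is not reported here. SMURF1, SMURF2, GDF11, ACVR2B and the marker genes were named after their values were seen. Alternatives were RLE and total-count scaling, DESeq2 1.42.0, limma-voom (limma 3.58.1), the newer and the robust edgeR estimators, a filter at 10 counts in every library, fits of 2 lines, a replicate block, trends with length and GC content, other thresholds and leaving out each library, and, added after seeing the data, the length trend without HUWE1-WT replicate 2.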

Additional observations from a re-analysis of the deposited data

How the results depend on the processing

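The calls of SMAD3 and BMP4 in both comparisons of HUWE1-CS were kept in 88 of 88 values under the alternatives that keep the FDR threshold, with log2 fold changes between -0.69 and -0.54 for SMAD3 and between -0.55 and -0.41 for BMP4. With a further limit of 1 on the absolute log2 fold change, 0 members were called in either comparison. With the length trend removed, 4 members were called in HUWE1-CS against HUWE1-WT, where 1773 of all 11350 genes were called. With the replicate block as well, 5 members were called. The added member was ID2, at -0.354 and just under the threshold (edgeR, FDR = 0.00967), where its FDR without the block was 0.0147.

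In HUWE1-CS against HUWE1-P, DESeq2 called 1088 genes, 9 of them of the pathway list, an FDR of 0.05 called 2999, and the fold limit left 275 and 3. In HUWE1-CS against HUWE1-WT, DESeq2 called 998 genes, an FDR of 0.05 called 2774 and 21 of the list, and the fold limit left 273 and 3. In HUWE1-WT against HUWE1-P, 0 genes were called by DESeq2, 1 by the robust fit, 4 with at least 10 counts in every library, 13 at an FDR of 0.05, 1 with the fold limit, and between 1 and 19 with 1 library left out (19 without HUWE1-WT replicate 1, 1 without HUWE1-P replicate 2 or HUWE1-WT replicate 2).

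No uncalled member value that changed sign was past the threshold. Against HUWE1-P, ID2 in HUWE1-CS was at -0.0279 with the length trend removed, at -0.0370 with the block added and between -0.0456 and 0.199 with a library left out. SMAD2 was at 0.24 in both fits with the length trend removed, at 0.0074 with the GC trend removed, at 0.0068 with the block added and between -0.0630 and 0.0070 with a library left out, and TGFBR1 was at -0.0102 by total counts and between -0.109 and 0.120 with a library left out. In HUWE1-WT, also against HUWE1-P, SMAD2 was at 0.0565 with the length trend removed and at 0.0586 with the block added. With 1 library left out, HUWE1-WT against HUWE1-P lay between -0.0099 and 0.118 for ID3, -0.0741 and 0.0783 for SMAD4, -0.448 and 0.151 for SMAD6, and -0.0595 and 0.0211 for BMP4, and HUWE1-CS against HUWE1-WT between -0.0010 and 0.177 for SMAD4. With HUWE1-WT replicate 2 left out and the length trend removed, chosen after seeing the data, 2 members were called in HUWE1-CS against HUWE1-WT, ID2 in HUWE1-CS against HUWE1-P was at -0.0266 and SMAD2 at 0.24, and HUWE1-WT against HUWE1-P gave -0.0062 for ID3, 0.0255 for SMAD2 and 0.148 for SMAD6. SMAD6 had no value with at least 10 counts in every library. The causes were not tested beyond the construction of each alternative. Of 395 values of other named genes under alternatives, 22 lost their call and 0 changed direction. DESeq2 did not call BMP7, TGFBR3, LTBP2, LTBP4 or NBL1 in HUWE1-CS against HUWE1-P.

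Correlations between the deviations of libraries from their line means were all small. They lay between -0.03 and 0.06 for libraries with the same replicate number and between -0.06 and 0.03 for those with different numbers. The highest value with the same number, 0.0626, was above the highest with different numbers, 0.0309. A weak pairing by number was not tested. With the replicate block, 2021, 1835 and 7 genes were called in the 3 comparisons, and 2, 2 and 0 members.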
